A study of Sus scrofa with 26 samples.

Results

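Subcutaneous adipose tissue (SCAT) of F1 pigs was compared with that of Creole pigs, both slaughtered at thermoneutrality (TN), across all genes of an Agilent one-colour array. The comparison was taken by sample title and rested on 7 of the 26 arrays: 4 of F1 pigs and 3 of Creole pigs, each from a different animal. The study asked how pig tissues respond to ambient temperature and held 3 breeds, Large White (LW), Creole and their cross LW × Creole (F1), kept at 24 °C (TN) or exposed to heat (HS), which the sample labels give as 30 °C and the series text as 32 °C for 5 days. All the pigs were castrated growing males, moved to the climatic room at 11 weeks of age and given free access to one commercial diet, and TN pigs were slaughtered before the temperature rise. They came in blocks of 4 littermates spread over both temperatures, so pigs of a breed can share parents both within a temperature and between TN and HS. The labels name neither the litter nor the pen, so the p-values below measure the spread between arrays. The other 19 arrays served to estimate that spread and to place the 2 groups: 10 were of F1 and Creole pigs in HS, and 9 were of LW pigs.

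The Creole is a local pig of the Caribbean, known for its early fatness and its tolerance of hot climates, whereas the Large White has been selected for lean growth. An F1 pig carries 1 set of autosomes from each parent breed, so for an autosomal gene that differs between the breeds through its own regulatory or transcribed sequence the cross has a level between them unless 1 allele dominates. Subcutaneous fat consists mainly of adipocytes, which build fatty acids from glucose (de novo lipogenesis), store them as triglycerides and release them by lipolysis. Blood vessels, fibroblast-like progenitors and resident macrophages fill the space between them. In such bulk tissue, fewer cells of a type and less RNA per cell cannot be told apart.

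Signal over background was compared first. Between 41314 and 46185 spots per array were well above background, which was 72.49% ± 3.5 (SD, n = 4) of the spots in F1 and 71.33% ± 1.69 (SD, n = 3) in Creole (exact permutation test over 35 splits, two-sided, p = 0.686; the smallest p this design allows is 0.0571). Arrays of the same group correlated at 0.9875 to 0.9925 over the tested probes, and arrays of different groups at 0.9831 to 0.9916. A level below is the log2 of the quantile-normalised intensity of a 60-base probe, a difference is the F1 mean minus the Creole mean of these levels with the standard error (SE) of the model, and levels of different probes are not comparable with each other. A probe was called when its limma p-value, adjusted by Benjamini-Hochberg over all 44703 tested probes, fell below 0.05.

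Very few probes were called between the 2 groups. With 4 against 3 arrays, a probe that was not called is not shown to be equal. Of 44703 tested probes, 4 were called, which is 0.00895%: 3 were higher in F1 (0.00671%) and 1 was lower (0.00224%). The median absolute difference was 0.105 against a median SE of 0.139, and 49.7% of the probes were higher in F1. At an unadjusted p under 0.05 there were 2889 probes (6.46%), of which 1609 (3.6%) were higher and 1280 (2.86%) lower in F1. The groups did not overlap at 3167 probes (7.08%), with F1 above at 3.91% and below at 3.17% of all probes, and at 7.13% of the named genes. Of the 4 called probes, 1 carried the symbol C1D and 1 the symbol C1GALT1. The other 2 had no gene name in the tables used here. Both unnamed probes stayed called when any 1 of the 7 arrays was left out of the fit on all groups, but neither was called on the 7 arrays alone with slide as a block (adjusted p = 0.593 for both), where A_72_P352383 was not called without the block either (0.238). When 1 array was left out, the number of calls ran from 2, without F1 replicate 1, F1 replicate 2 or Creole replicate 3, to 11 without F1 replicate 3.

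The sequences of these 4 probes are shown because they define what was measured where the gene name is missing or where other probes of the gene behaved differently. They are printed 5′ to 3′ as the scanner files give them. No base is marked in them.
A_72_P352383: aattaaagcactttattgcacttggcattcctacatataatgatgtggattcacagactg
A_72_P097651: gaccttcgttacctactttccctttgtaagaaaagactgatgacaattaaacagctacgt
C1D A_72_P220612: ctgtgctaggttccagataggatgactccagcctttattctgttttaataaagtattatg
C1GALT1 O9745: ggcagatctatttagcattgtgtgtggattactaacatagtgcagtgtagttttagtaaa

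Probe A_72_P352383, whose description in the files is only "Unknown", had the smallest p. Its levels were 7.38, 7.25 and 7.41 in the Creole pigs and 8.61, 8.49, 8.15 and 8.21 in the F1 pigs. All 4 F1 arrays lay above all 3 Creole arrays, and the spread within each group was small beside the gap. The difference was 1.02 ± 0.11 (SE), a 2.02-fold higher intensity in F1 with a 95% interval of 1.72 to 2.38 (limma, adjusted p = 0.000225). The LW arrays were at 8.65 ± 0.06 (SD, n = 4), so the F1 mean was -0.29 from LW (95% interval -0.50 to -0.07) and 1.02 from Creole.

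Probe A_72_P097651 was described in the files only as similar to a coiled-coil domain containing 17 transcript of the dog. Its levels were 5.82, 5.87 and 6.35 in Creole and 8.95, 9.23, 8.74 and 8.41 in F1. The lowest F1 array was far above the highest Creole array. The difference was 2.82 ± 0.36 (SE), or 7.06-fold (4.25 to 11.7; adjusted p = 0.00095). The LW level was 9.07 ± 0.17 (SD, n = 4), and F1 minus LW was -0.24 (95% interval -0.92 to 0.44). The one tested probe that carried the symbol CCDC17, O9385, was chosen after its values were seen, and it has another sequence.
CCDC17 O9385: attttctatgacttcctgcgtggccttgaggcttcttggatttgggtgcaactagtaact
Its levels were 5.66, 5.63 and 5.92 in Creole and 6.47, 6.58, 6.4 and 6.13 in F1, without overlap, and the difference of 0.66 ± 0.19 did not pass (adjusted p = 0.502). In HS the difference was 0.93 and passed (adjusted p = 0.0125).

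C1D encodes a small nuclear protein that works with the RNA exosome. Its probe A_72_P220612 gave 8.85, 8.92 and 8.89 in Creole and 10.16, 9.91, 9.41 and 9.51 in F1. The 3 Creole arrays were almost identical, while the F1 arrays varied more and all lay higher. The difference was 0.86 ± 0.14 (SE), or 1.81-fold (1.49 to 2.20; adjusted p = 0.0241), and LW was at 9.90 ± 0.08 (SD, n = 4). The other C1D probe, O407, differed by 0.07 ± 0.10, so the rise was seen by 1 of 2 probes of the gene. C1D was also no longer called when only the 7 arrays were fitted (adjusted p = 0.66), or when F1 replicate 1, F1 replicate 2 or any 1 of the 3 Creole arrays was left out (0.0767 to 0.182).

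C1GALT1 encodes the core 1 synthase, the enzyme that adds galactose to the first sugar of mucin-type O-glycans. Its only probe, O9745, gave 8.33, 9.13 and 8.19 in Creole and 5.28, 5.33, 5.51 and 5.45 in F1. The probe was well above background on all 3 Creole arrays and on none of the 4 F1 arrays. Only a bound can therefore be given: by the group means the intensity was at least 8.92-fold higher in Creole. The fitted difference was -3.16 ± 0.53 (adjusted p = 0.049). Its 95% interval of 4.17-fold to 19.1-fold reaches below this bound, which leaves out the spread between arrays. LW was at 5.48 ± 0.12 (SD, n = 4), at the level of F1. The probe passed the filter on low values through the Creole group, where it is high, and without the filter it was not called (adjusted p = 0.0623). The call was also lost when any 1 of the 7 arrays was left out (0.0544 to 0.191).

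**Figure D1:**
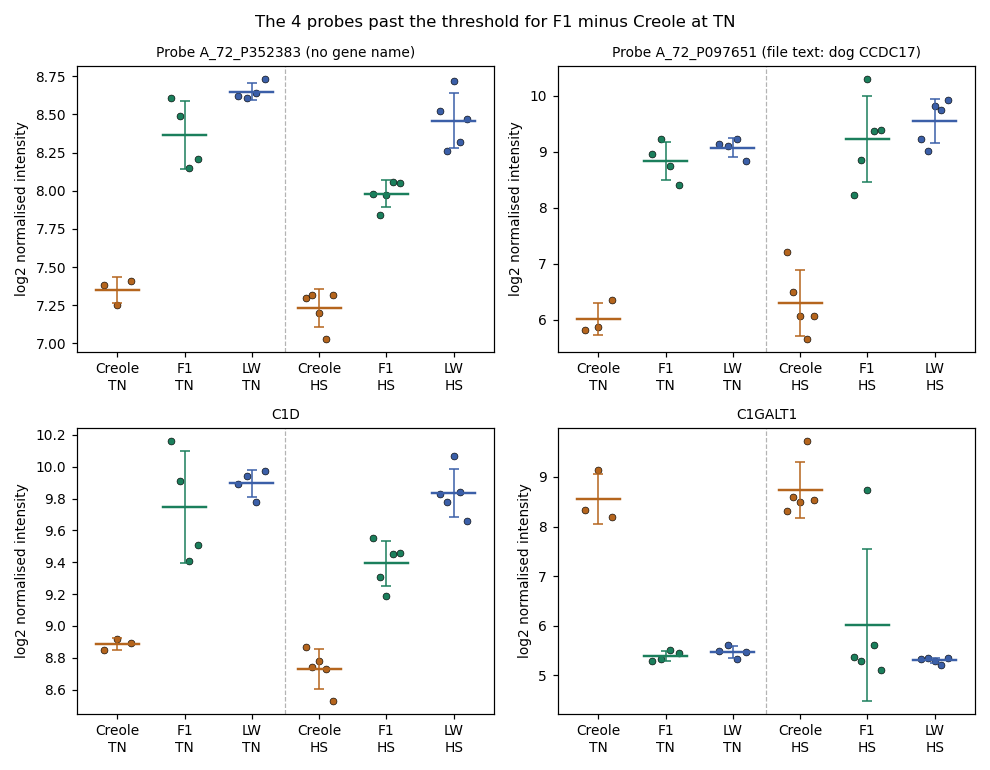
Levels (log2 normalised intensity, vertical axes) of the 4 called probes on every array, by breed and temperature; points are arrays, long bars group means and whiskers 1 SD. At TN the F1 points are apart from the Creole points in each panel and near the LW points, and in HS 1 F1 array lies among the Creole arrays for C1GALT1.

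The same contrast could be read in other animals, since the HS arrays share no pig with the TN arrays. The HS pigs can be littermates of the TN pigs, however, and both contrasts use the same estimate of the spread. The HS values are therefore not a fully independent reading. In HS, F1 minus Creole gave 32 calls (0.0716%), and all 4 probes called at TN were among them. There the difference was 0.75 for A_72_P352383 (adjusted p = 0.000954), 2.92 for A_72_P097651 (3.12e-05), and 0.66 for C1D (0.0159). C1GALT1 was called as lower in F1 (0.0113), but its probe was well above background on 5 of 5 Creole and 1 of 5 F1 arrays in HS, so no exact difference is given. The C1GALT1 levels of the F1 pigs in HS were 5.36, 5.29, 8.74, 5.61 and 5.10, so 1 F1 pig was at the Creole level, which ran from 8.32 to 9.72. Of the 32 probes called in HS, 27 had the same sign at TN and 18 had an unadjusted TN p under 0.05. Over all tested probes, 52.3% had the same sign at both temperatures. No probe was called for the difference between the 2 temperatures (0.0%; limma, 2379 probes or 5.32% at an unadjusted p under 0.05).

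LW minus Creole at TN gave 140 calls (0.313%) and shares the 3 Creole arrays with F1 minus Creole, by which these 4 probes were called, so a like side is no independent reading. Its differences were 1.30, 3.06 and 1.01 for A_72_P352383, A_72_P097651 and C1D, while the C1GALT1 probe was not well above background on any of the 4 LW or 4 F1 arrays, so no exact difference is given for it. F1 minus LW at TN gave 98 calls (0.219%), which included none of the 4. Both counts depended on the fit: with slide as a fixed block they were 27 for LW minus Creole and 1 for F1 minus LW, and when 1 array was left out they ran from 18 (without Creole replicate 2) to 114 and from 2 (without LW replicate 1) to 323 (without LW replicate 2). F1 differed from the mean of the 2 parent breeds by 0.37, 1.29 and 0.36 at A_72_P352383, A_72_P097651 and C1D (adjusted p = 0.314, 0.269 and 0.417), and no probe was called in that comparison (0.0%; limma, 3837 probes or 8.58% at an unadjusted p under 0.05).

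Described next are probe A_72_P788198, designed on a pig cDNA clone that the files name AMP010001H11, and a second probe of the same clone, A_72_P742057. Both were chosen for description after their values were seen, and neither was called in the fit on all 26 arrays. With slide as a fixed block both were (adjusted p = 0.0413 for both). A run of 27 bases of A_72_P788198 recurs in a probe without a gene name in the files. These 3 sequences are shown because they read the same pattern, and the capitals mark the shared run.
A_72_P788198: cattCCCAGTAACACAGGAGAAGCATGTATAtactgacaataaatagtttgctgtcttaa
unnamed probe: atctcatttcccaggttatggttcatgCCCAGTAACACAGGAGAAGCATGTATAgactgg
A_72_P742057: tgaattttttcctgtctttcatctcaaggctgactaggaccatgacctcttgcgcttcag

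The levels of A_72_P788198 were 12.75, 11.84 and 11.67 in Creole and 5.58, 5.71, 5.45 and 5.15 in F1. The probe was bright in all 3 Creole pigs and well above background in only 1 of the 4 F1 pigs. The fitted difference was -6.61 ± 1.21 (adjusted p = 0.0803), but its size is not exact, since most F1 arrays were not well above background. For A_72_P742057 the levels were 14.26, 13.09 and 13.08 in Creole against 10.79, 10.72, 10.57 and 11.10 in F1, again without overlap, a difference of -2.68 ± 0.55 (adjusted p = 0.158). The unnamed probe gave 13.58, 12.74 and 12.62 against 11.77, 11.59, 11.66 and 11.88, a difference of -1.26 ± 0.30 (adjusted p = 0.304). The probe on the opposite strand of the unnamed one differed by 0.16 ± 0.22.

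The SE of A_72_P788198 includes 2 pigs in HS whose levels were those of the other group. Creole replicate 5 in HS was at 6.34, while the other 4 Creole pigs in HS were between 11.47 and 12.18. F1 replicate 2 in HS was at 11.77, while the other 4 F1 pigs were between 5.14 and 5.73. At A_72_P742057 the same 2 arrays stood out, at 11.45 and 13.71. At the 4 called probes both arrays were with their own group: F1 replicate 2 in HS was at 7.84, 8.85, 9.31 and 5.29 for A_72_P352383, A_72_P097651, C1D and C1GALT1, and Creole replicate 5 in HS at 7.32, 6.06, 8.53 and 8.54. With the spread taken from the 7 TN arrays alone, the adjusted p of A_72_P788198 was 0.000212, and from the 11 TN arrays it was 3.37e-07. These fits hold no HS array, so they leave out the 2 pigs that went against the pattern. The probe was also chosen after its values were seen, so no conclusion is drawn from these p-values.

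**Figure D2:**
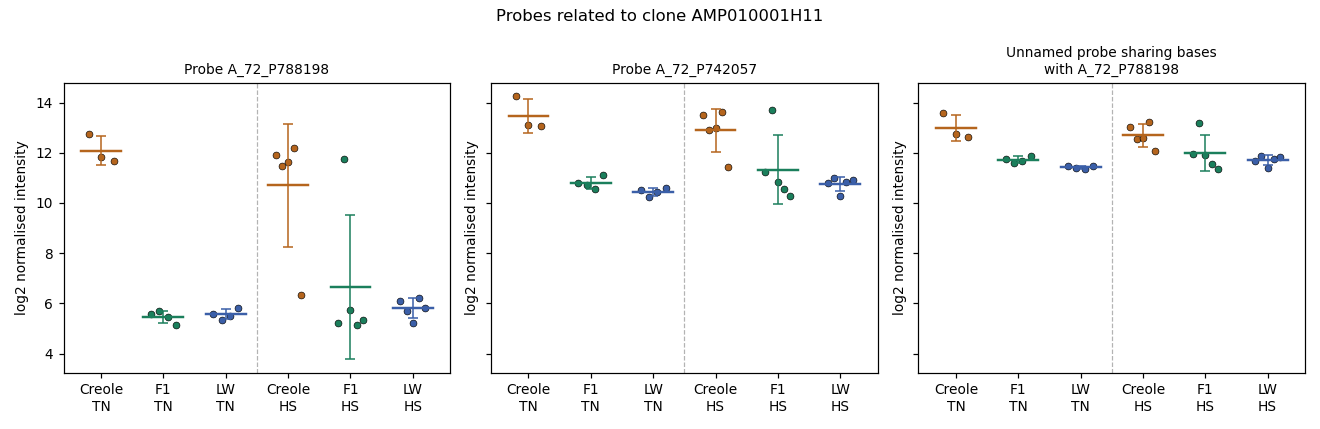
Levels (log2 normalised intensity, vertical axes, shared scale) of 2 probes of clone AMP010001H11 and of the unnamed probe that shares 27 bases with the first, on every array; points are arrays, long bars group means and whiskers 1 SD. The TN groups are separate in each panel, and in HS 1 Creole array at 6.34 and 1 F1 array at 11.77 trade places in the first panel.

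The named genes nearest to the threshold were taken by p-value, up to 10 in each direction, and apart from C1D and C1GALT1 none of them passed in the fit on all 26 arrays. STK16, a membrane-associated serine/threonine kinase, was at 10.58, 10.59 and 10.66 in Creole and 11.46, 11.53, 11.38 and 11.40 in F1. Both groups were tight and did not overlap, the difference was 0.83 ± 0.15 (adjusted p = 0.0716; with median centring 0.0368, on the 11 TN arrays 0.00803 and with array weights 0.0106), and the other 3 STK16 probes differed by 0.01 to 0.12. JAK2, the kinase of the growth hormone and leptin receptors, was at 6.32, 6.22 and 6.24 against 6.66, 6.94, 6.8 and 7.27, a difference of 0.66 ± 0.13 (adjusted p = 0.101), while its other probes differed by -0.18 and 0.18. TAOK3, a kinase of stress-activated pathways, was at 9.61, 9.67 and 9.83 against 11.02, 11.43, 10.64 and 10.72, a difference of 1.25 ± 0.27 (adjusted p = 0.207). A second TAOK3 probe differed by 1.14 and another by 0.07.

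GSN, which encodes the actin-severing protein gelsolin, was at 11.60, 10.39 and 11.10 in Creole and 11.93, 12.14, 11.50 and 12.48 in F1. The ranges met between 11.50 and 11.60, the difference was 0.98 ± 0.23 (adjusted p = 0.293), and the other 3 GSN probes gave 0.62 to 0.99, so all 4 had the same sign. PPT2, a lysosomal thioesterase, was at 7.53, 7.55 and 7.5 against 8.62, 8.42, 8.0 and 7.88, a difference of 0.71 ± 0.16 (adjusted p = 0.222). Its other 4 probes gave 0.14 to 0.43, and in HS its difference was -0.17. TOMM20, a receptor for protein import into mitochondria, differed by 0.43 ± 0.08 (adjusted p = 0.101) at a dim probe, with means of 5.66 in Creole and 6.09 in F1. Its 8 other probes, all brighter, gave only -0.17 to 0.16, and 5 of them had the same sign. TERT, the catalytic subunit of telomerase, was at 6.54, 5.84 and 5.49 in Creole and 6.87, 7.0, 6.6 and 6.83 in F1. Its probe was well above background on only 2 of 3 Creole arrays. The difference was 0.87 ± 0.19 (adjusted p = 0.222, and 0.0193 without Creole replicate 1, the highest Creole array). The other TERT probe, much brighter at 11.74 in Creole and 11.55 in F1, gave -0.19. CXHXorf21 differed by 0.58 ± 0.13 (adjusted p = 0.249; its other probe 0.27) and LOC100157433 by 0.48 ± 0.11 (adjusted p = 0.222; its other probe -0.31).

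Values lower in F1 included those of ACY1. The gene, which encodes a cytosolic aminoacylase that frees amino acids from their acetylated forms, was at 12.04, 12.34 and 12.60 in Creole and 11.78, 11.46, 11.35 and 11.94 in F1. The groups did not overlap, the difference was -0.70 ± 0.16 (adjusted p = 0.235), and its other 2 probes both gave -0.31. RDH16, a retinol and steroid dehydrogenase, was at 11.83, 11.66 and 11.47 against 10.15, 9.70, 10.93 and 11.06, a difference of -1.19 ± 0.29 (adjusted p = 0.353), and its other probe gave -1.94. GSTA4, a glutathione transferase that clears lipid peroxidation products such as 4-hydroxynonenal, is described below with its sequences. PRPS2, a phosphoribosyl pyrophosphate synthetase, was at 8.87, 9.07 and 9.03 against 8.17, 8.28, 8.39 and 8.39, a difference of -0.68 ± 0.13 (adjusted p = 0.0954), but its other probes gave 0.30 and 0.38, the opposite sign. This PRPS2 probe was called in HS at -0.62 (adjusted p = 0.0166), and at TN with slide as a fixed block (0.0121), the 75th percentile scaling (0.0379) or array weights (0.0407).

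GSTA4 was read by 2 named probes that share an unbroken run of 34 bases, shown in capitals, so they are not independent readings.
GSTA4 A_72_P605968: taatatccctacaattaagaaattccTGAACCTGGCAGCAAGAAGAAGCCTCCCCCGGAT
GSTA4 A_72_P210752: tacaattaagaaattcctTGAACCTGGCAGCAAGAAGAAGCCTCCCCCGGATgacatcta
Levels of A_72_P605968 were 9.74, 9.67 and 9.78 in Creole and 9.0, 9.02, 9.32 and 9.02 in F1. The Creole arrays were close together and above all F1 arrays, of which replicate 3 was the highest. The differences were -0.64 ± 0.15 (adjusted p = 0.297) for this probe and -0.63 ± 0.15 for the other. In HS, both were called at -0.78 (adjusted p = 0.0112) and -0.76 (0.0141). An unnamed probe that overlaps them gave -0.83 ± 0.17 at TN (adjusted p = 0.13, and 0.0494 without F1 replicate 3) and was called in HS at -0.99 (0.00247).

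LHCGR, the receptor for luteinising hormone, had the largest difference of this set after C1GALT1 by the 1 probe taken per gene. The second RDH16 probe, at -1.94, was beyond it. Its levels were 10.02, 9.94 and 9.66 in Creole and 7.49, 8.12, 8.83 and 8.52 in F1. The groups did not overlap, and the F1 pigs varied more than the Creole pigs. The difference was -1.63 ± 0.38 (adjusted p = 0.293), and all 3 LHCGR probes gave -1.43 to -1.63. LW was at 9.45 ± 0.38 (SD, n = 4), and F1 minus LW was -1.21, which was not called (adjusted p = 0.11). In HS, F1 minus Creole was -0.03 and F1 minus LW was 0.77 (adjusted p = 0.263). The difference of F1 minus Creole between the temperatures did not pass (adjusted p = 0.896). The other genes of the set were MAG, a myelin glycoprotein of Schwann cells (-0.87 ± 0.17; adjusted p = 0.13), DYNLT3, a dynein light chain (-0.45 ± 0.10; adjusted p = 0.181), LNX2, a ubiquitin ligase (-0.66 ± 0.16; adjusted p = 0.304), and DMD, dystrophin (-0.71 ± 0.18; adjusted p = 0.356; its other 3 probes -0.00 to -0.21).

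A difference over 1 log2 unit was found at 206 probes, 110 higher and 96 lower in F1, and 3 of them were called. Of the 206, 167 (81.1%) had the same sign in HS, against 52.3% of all tested probes. CES1, a carboxylesterase of lipid and drug ester hydrolysis, was of opposite sign in HS and was chosen after its values were seen. Its 7 probes all gave higher values in F1 at TN, by 1.78 to 2.37 (unadjusted p = 0.000756 to 0.00462), and lower values in HS, by -0.67 to -1.17. Levels of A_72_P755442 were 10.99, 8.42 and 11.52 in Creole and 13.24, 12.28, 12.43 and 12.78 in F1. Creole replicate 2 was lowest by far, yet the other 2 Creole arrays were also below F1. The difference was 2.37 ± 0.70 (adjusted p = 0.561), or 1.42 without Creole replicate 2, and the difference between temperatures, 3.54 (95% interval 1.65 to 5.42), did not pass either (adjusted p = 0.896).

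**Figure D3:**
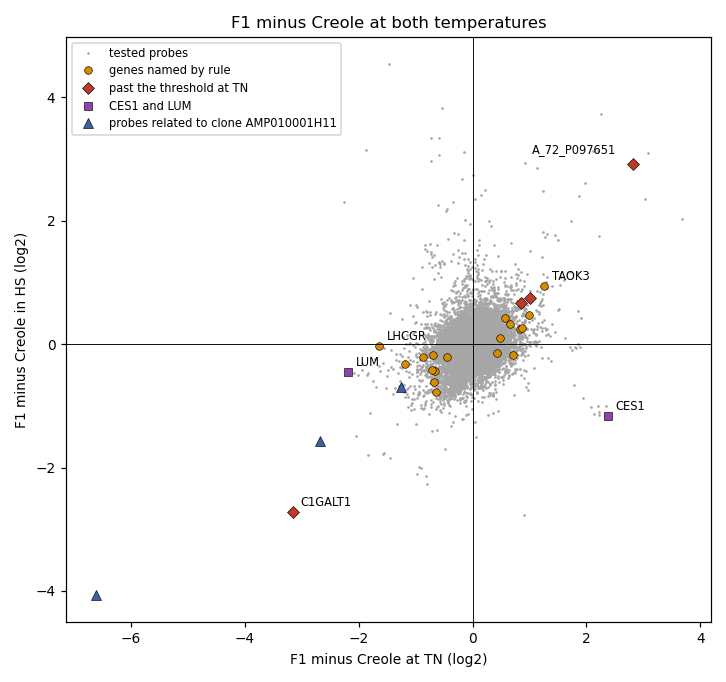
F1 minus Creole (log2) at TN on the horizontal and in HS on the vertical axis; grey points are the 44703 tested probes, red diamonds the 4 called at TN, orange circles the genes named by p-value, purple squares 1 probe each of CES1 and LUM, and blue triangles the 3 probes related to clone AMP010001H11. The called probes lie near the diagonal, whereas CES1 is at 2.37 and -1.17 and LHCGR at -1.63 and -0.03.

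A few probes of well-known genes separated from the other probes of their gene, and these were chosen after their values were seen. LUM encodes lumican, a proteoglycan of the collagen matrix made by fibroblasts. Its probe A_72_P665036 gave 11.43, 11.37 and 12.04 in Creole and 8.73, 9.03, 11.28 and 8.68 in F1, so 3 F1 pigs were far lower and replicate 3 was close to Creole. The difference was -2.18 ± 0.67 (adjusted p = 0.596). LUM probes fell into a group of 3 with -1.23 to -2.18 and a group of 8 with -0.29 to 0.37.

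COX1 and COX2 encode subunits of cytochrome c oxidase on the mitochondrial genome, which is inherited from the mother. COX2 probe A_72_P746371 gave 9.19, 16.39 and 13.58 in Creole and 16.25, 16.01, 16.18 and 16.10 in F1. The Creole pigs covered the whole range, whereas the F1 pigs were all high. In HS the same was seen, with Creole levels of 13.03, 12.76, 9.58, 15.94 and 13.48 and F1 levels of 15.98, 15.79, 15.94, 16.18 and 16.40. LW pigs at TN were at 13.63, 13.73, 16.17 and 16.15. The difference at TN was 3.08 ± 1.23 (adjusted p = 0.72), while the other 4 COX2 probes gave -0.00 to 0.43. It was 1.15 without Creole replicate 1 and 4.75 without Creole replicate 2. COX1 probe A_72_P762153 repeated this pattern, with 13.25, 17.29 and 13.50 in Creole and 16.89, 16.73, 17.11 and 16.82 in F1, a difference of 2.21 ± 1.17 (adjusted p = 0.797), and the other 24 COX1 probes gave -0.13 to 0.71. Without Creole replicate 2 the COX1 value was 3.51.

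The gene lists gave no called member. In all, 45 lists with 771 tested genes were described, 31 of functions and 14 of cell type markers, each gene by its brightest probe, and the smallest adjusted p was 0.13. As background, of 10145 named genes 49.1% were above 0 with a median of -0.003, and 640 (6.31%) had an unadjusted p under 0.05, of which 335 (3.3%) were higher and 305 (3.01%) lower in F1. In HS, 49.2% of them were above 0. The counts below are descriptions of the lists beside this background, and no list was tested.

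Of 14 genes of de novo lipogenesis, 13 were below 0 and none reached an unadjusted p under 0.05, with a median of -0.32. ACLY, which makes cytosolic acetyl-CoA from citrate, was at -0.80, ACSS2 at -0.72, ACACA (acetyl-CoA carboxylase) at -0.62 and SREBF1, the transcription factor of the pathway, at -0.51 ± 0.28 (adjusted p = 0.799; -0.28 without F1 replicate 2 and -0.32 without Creole replicate 2), while FASN (fatty acid synthase) was at -0.09. The list score of an array, the mean of its members' levels after subtracting each gene's mean over the 26 arrays, was 0.48, 0.67 and 0.39 in Creole and 0.34, -0.29, 0.56 and -0.00 in F1. The groups overlapped, since F1 replicate 3 was among the Creole arrays. The median was -0.22 to -0.46 when any 1 of the 7 arrays was left out, and in HS it was -0.05. Cholesterol synthesis, which shares regulators with lipogenesis, had 11 of 17 genes below 0 and a median of -0.22, which was -0.11 without F1 replicate 1 or without Creole replicate 3.

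Storage and release of fat had medians near the background. Triglyceride synthesis and lipid droplet genes had 13 of 15 above 0 with a median of 0.12 (0.20 without F1 replicate 4), and lipolysis genes 6 of 10 with a median of 0.07. For the former the median was 0.06 with 11 of 15 above 0 without F1 replicate 1, and 10 of 15 were above 0 without Creole replicate 1. The lipolysis median was 0.03 without Creole replicate 2 and 0.04 without F1 replicate 1. PCK1, whose product supplies glycerol 3-phosphate for triglycerides in fat, was the extreme, with 14.22, 11.37 and 13.12 in Creole and 15.77, 16.45, 12.01 and 14.63 in F1. The groups overlapped, and all 6 PCK1 probes gave 1.71 to 1.88 (1.81 ± 0.96 and adjusted p = 0.795 for A_72_P637186). Without Creole replicate 2 this value was 1.05, and without F1 replicate 3 it was 2.72. LIPE (hormone-sensitive lipase) was at 0.29 ± 0.17 (adjusted p = 0.807) and AQP7, the glycerol channel, at 0.28 ± 0.14 (adjusted p = 0.78; 0.18 without F1 replicate 2). Of the genes of fat uptake, LPL (lipoprotein lipase) was at 15.97, 15.42 and 15.38 in Creole and 14.58, 14.37, 15.28 and 15.01 in F1, without overlap (-0.78 ± 0.26, adjusted p = 0.619), while the other 6 LPL probes gave -0.49 to 0.32. LEP, the adipocyte hormone leptin, was at 10.13, 12.38 and 10.15 against 9.43, 8.60, 10.79 and 9.50 (-1.31 ± 0.65, adjusted p = 0.778), and the groups overlapped. Without Creole replicate 2 the LEP value was -0.56, and the other LEP probes gave -0.63 and -0.57. Adipocyte markers as a whole had 5 of 12 above 0 and a median of -0.05 (0.05 with the mean of all probes of a gene), and all 12 were well above background on all 7 arrays. ADIPOQ (adiponectin) differed by 0.01 and FABP4, the adipocyte fatty acid binding protein, by -0.05.

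Mitochondrial lists were below 0 by small amounts. Of the TCA cycle genes 14 of 17 were below 0 (median -0.09), of complex I subunits 26 of 33 (median -0.08), of complexes III to V 28 of 32 (median -0.12) and of branched-chain amino acid breakdown 15 of 18 (median -0.12). Single arrays moved these values: without F1 replicate 4 the medians of the TCA cycle and complex I were both -0.05, with 22 of 33 complex I genes below 0, and without Creole replicate 2 the medians of complex I and of complexes III to V were -0.05 and -0.06, with 11 of 17 TCA cycle and 21 of 33 complex I genes below 0. For branched-chain amino acid breakdown the median was -0.08 without F1 replicate 1 or Creole replicate 1. COX5A was at -0.82 ± 0.28 (adjusted p = 0.636). NDUFV3 went the other way, at 0.49 ± 0.20 (adjusted p = 0.718). Of the 22 fatty acid oxidation genes 14 were below 0, and the median was -0.02. PPARA, the receptor that drives this pathway, was at -0.50, ECI2 at -0.97 and ACADM at -0.30, whereas HADHA was at 0.36, each at an unadjusted p under 0.05.

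Macrophage and interferon lists had medians above 0. Of 14 macrophage markers 12 were above 0, 6 of them at an unadjusted p under 0.05, with a median of 0.36. VSIG4, a complement receptor of resident macrophages, was at 10.80, 9.74 and 10.03 in Creole and 10.72, 11.21, 11.04 and 10.74 in F1 (0.74 ± 0.23, adjusted p = 0.607). CD163, the haemoglobin scavenger receptor, was at 0.85, MRC1 at 0.66 and the complement genes C1QA, C1QB and C1QC at 0.63, 0.52 and 0.64. No marker of the list separated the groups fully. Creole replicate 1 lay among the F1 arrays, since the scores were -0.07, -0.46 and -0.25 in Creole and -0.10, 0.16, 0.36 and -0.03 in F1. In HS the list had 2 of 14 above 0 and a median of -0.21.

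Interferon response genes had 21 of 26 above 0 and 4 at an unadjusted p under 0.05, with a median of 0.39. MX2, an antiviral GTPase, was at 10.42, 9.17 and 9.03 in Creole and 10.53, 10.77, 10.68 and 10.51 in F1 (1.08 ± 0.39, adjusted p = 0.662), without overlap but by a small margin to Creole replicate 1. Its other probes gave 0.35 and 0.46. XAF1 was at 1.22, and GBP2 and IFIT2 were both at 0.45. Scores were -0.18, -0.13 and -0.26 in Creole and 0.36, -0.15, 0.24 and 0.22 in F1, so F1 replicate 2 was at the Creole level. On slide 2, where that array stood beside Creole replicate 1, the median was -0.01. In HS, 23 of 26 genes were above 0 and the median was 0.20.

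Glucocorticoid target genes had 9 of 12 above 0 and a median of 0.44. PER1 was at 13.85, 14.05 and 14.07 in Creole and 14.18, 15.25, 14.58 and 14.26 in F1 (0.58 ± 0.27, adjusted p = 0.761; 0.35 without F1 replicate 2), TXNIP at 0.72 and FKBP5, a chaperone of the receptor, at 0.54. The scores were 0.19, -0.44 and -0.07 in Creole and 0.18, 0.93, 0.09 and 0.10 in F1. F1 replicate 2 was far above the others, and without it the median was 0.23. Heat shock proteins, the chaperones of the stress response, had 16 of 44 above 0 and a median of -0.03.

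Of the cell types other than adipocytes and macrophages, skeletal muscle markers had 2 of 21 above 0 and a median of -0.28. Creole replicate 1 carried the highest muscle score, at 1.07, against 0.17 and 0.06 in the other Creole pigs and 0.77, -0.15, -0.78 and 0.11 in F1. Without Creole replicate 1 the median was -0.06 and 9 of 21 were above 0, and without F1 replicate 3 it was -0.10 with 8 of 21. It moved the other way, to -0.63 without F1 replicate 1 and to -0.51 without Creole replicate 2. The part of muscle RNA in the mitochondrial lists was not tested. Cell cycle genes had 4 of 22 above 0 and a median of -0.15, which was -0.05 without Creole replicate 3. KIT, the receptor of mast cells and their progenitors, was at 10.04, 9.60 and 10.50 in Creole and 11.42, 11.53, 10.75 and 11.18 in F1, without overlap (1.18 ± 0.30, adjusted p = 0.356). Its 4 probes gave 0.84 to 1.18. The neutrophil and mast cell list that holds KIT had 6 of 8 genes above 0, 1 of them at an unadjusted p under 0.05, and its median of 0.15 was 0.03 without F1 replicate 1 and -0.03 without Creole replicate 3. KDR, the endothelial VEGF receptor, was at 0.91 ± 0.25, but its other probes gave -0.26 and -0.11.

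The remaining lists had no called member either. Endothelial markers had 8 of 13 above 0 (median 0.02), fibroblast and progenitor markers 10 of 16 (0.11), smooth muscle and pericyte markers 4 of 11 (-0.06), T cell and NK cell markers 3 of 12 (-0.10) and red blood cell markers 3 of 6 (-0.00). When 1 array was left out, the median of each of these 5 lists took either sign: it ran from -0.13 (without Creole replicate 2) to 0.29 (without Creole replicate 3) for fibroblast and progenitor markers, and the other 4 lay between -0.18 and 0.08. Chondrocyte and tendon markers had 6 of 7 above 0 with a median of 0.36, which was 0.15 without Creole replicate 1 and -0.01 without Creole replicate 2. Collagen chains had 17 of 22 above 0 (median 0.11), antioxidant enzymes 12 of 26 (-0.06), steroid handling genes 3 of 17 (-0.12), glutathione S-transferases 1 of 9 (-0.18) and swine leukocyte antigen and antigen presentation genes 11 of 22 (0.01). The collagen median was -0.05 without Creole replicate 2 and 0.25 without Creole replicate 3, and that of the swine leukocyte antigen list ran from -0.05 to 0.05 when 1 array was left out. The steroid handling and antioxidant medians ran from -0.17 to -0.07 and from -0.08 to -0.02 over the same fits. Cytokines, chemokines and complement genes had 22 of 37 above 0 (median 0.03), with 5 higher and 3 lower at an unadjusted p under 0.05. Within this list, IL15, a growth factor of natural killer and T cells, was at 9.55, 9.4 and 9.62 in Creole and 10.6, 10.45, 9.48 and 10.39 in F1. F1 replicate 3 was among the Creole arrays and the other 3 were above them (0.71 ± 0.21, adjusted p = 0.537, and 0.95 with 0.0494 without that array). The other IL15 probes gave 1.01 and 0.36.

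**Figure D4:**
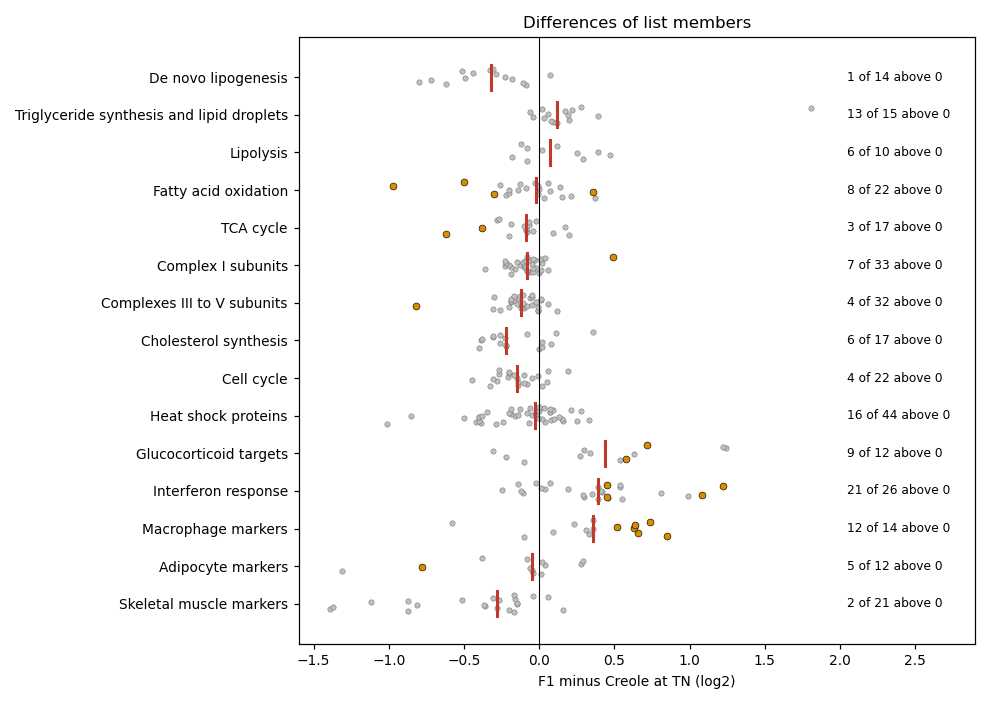
F1 minus Creole at TN (log2, horizontal axis) for the members of 15 lists; points are genes, orange points those at an unadjusted p under 0.05, and red bars list medians. Lipogenesis has 13 of 14 genes below 0 and macrophage markers 12 of 14 above 0, while no gene of any list was called.

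**Figure D5:**
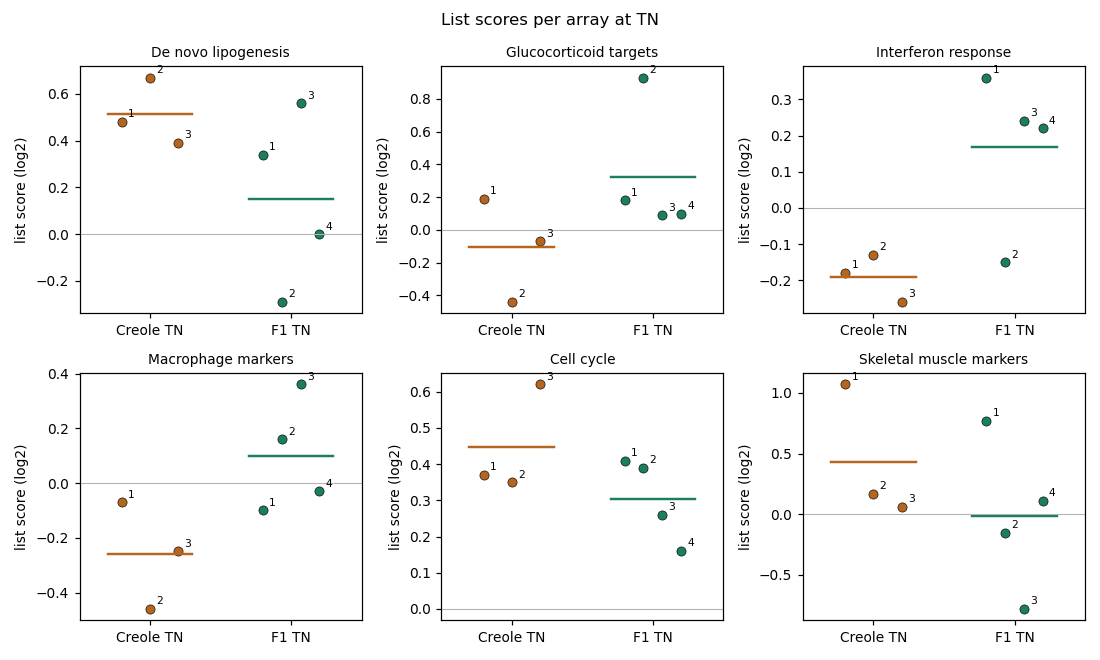
List scores (log2, vertical axes with separate scales) of the 7 TN arrays for 6 lists; points are arrays with their replicate number and bars are group means. For lipogenesis and muscle the groups overlap, and F1 replicate 2 stands alone at 0.93 for glucocorticoid targets and at the Creole level for interferon response.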

How the data were processed

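Total RNA of SCAT (200 ng) was labelled with Cy3 by the authors and hybridised to Agilent pig arrays, 1 array per pig, and scanned images were read with Agilent Feature Extraction 10.10.1.1. The deposited intensity values (median and mean spot, background and processed signal) and the flags of each spot for background, saturation and uniformity were used. The deposited table of log2 values, quantile-normalised by the authors, was an alternative. Here the median spot intensity was quantile-normalised over the 26 arrays and taken as log2 without background correction. Non-uniform spots were set missing, spots of 1 probe averaged, and probes well above background on at least 8 of 26 arrays tested. Group means of breed by temperature were fitted with limma 3.58.1 (R 4.3.3; eBayes with intensity trend), with Benjamini-Hochberg adjustment at 0.05. The authors' random effects (pen, slaughter day, father, mother) are not in the labels and were not fitted. The script was tested on simulated data.

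Probes were named by accession or symbol through RefSeq gene tables of Sscrofa11.1. No probe coordinates are given. Of all spots, 35852 had no name and 39 had several. Named genes were the called ones, filled to 10 per direction by smallest p, one probe per gene, plus the member with the smallest p of each list and the 3 genes with the smallest p of HS, of the difference between temperatures and of F1 minus mid-parent. Some genes that this rule names are not reported here. Members and lists were chosen with earlier results of these data known. The alternatives were other background corrections, scalings and filters, fits on fewer arrays, slide as a block, array weights and leaving out each array. The slides are the only batches known: the 7 arrays were on slides 1 to 4, and slides 2, 3 and 4 each held 1 F1 and 1 Creole array. The number of arrays limits the precision.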

Additional observations from a re-analysis of the deposited data

Results flagged for a closer look

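In the F1 group at TN, 1 array stood apart from the other 3 at 7 of the probes described. For each, the gap to the nearest array was divided by the range of the group and exceeded Dixon's 95% critical value for 4 samples. In all, 79 sets of arrays were examined this way, and chance gives about 1 in 20. F1 replicate 2 was apart for LOC100157433 (0.876; 8.06 against 7.83 to 7.85) and for AKR1E2, an aldo-keto reductase (0.903; 7.40, below the Creole level, against 9.62 to 9.85). F1 replicate 3 was apart for both overlapping GSTA4 probes, A_72_P605968 (0.921; 9.32) and A_72_P210752 (0.872; 9.56), and for LUM A_72_P665036 (0.865; 11.28). F1 replicate 4 was apart for SLA-DQB1, a class II antigen chain (0.874; 14.65). F1 replicate 1 was apart for DMD (0.885; 9.21).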

How the results depend on the processing

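No analysis paired by litter was possible, because the labels do not name the litter. The labels carry no replicate numbers either, and those used here follow the order of the samples within each group. Slides 2, 3 and 4 each held 1 F1 and 1 Creole array at TN, so a block by slide was fitted instead. Slide as a fixed block gave 9 calls for F1 minus Creole at TN in place of 4 (the 4 among them), 1 for F1 minus LW in place of 98 and 27 for LW minus Creole in place of 140. On the 7 arrays alone with that block 1 probe was called, A_72_P788198 (adjusted p = 0.00614), and the 4 had adjusted p of 0.222 to 0.692. Without the block the 7 arrays gave 3 calls, and A_72_P352383 and C1D were not among them (adjusted p = 0.238 and 0.66). Calls at TN numbered 7 with normexp background correction, 8 with median centring, 7 on the 11 TN arrays, 12 with array weights and 2 of 10145 with 1 mean per gene. F1 minus LW gave 158 with median centring, 46 without a filter and 1066 with array weights, and LW minus Creole 317 with array weights. Leaving out 1 array gave 2 to 11 calls at TN (2 without F1 replicate 1, F1 replicate 2 or Creole replicate 3, and 11 without F1 replicate 3), 17 to 48 in HS, 2 to 323 for F1 minus LW, 18 to 114 for LW minus Creole, and 0 to 4 both for the difference between temperatures and for the mid-parent comparison. C1GALT1 was not called without the filter (adjusted p = 0.0623), without the intensity trend (0.0502) or with robust eBayes (0.0664). A_72_P352383 and A_72_P097651 were called in 21 and 22 of 23 alternatives. As means of all probes of the gene, SLA-3 was at -0.016 and SLA-DQB1 at -0.156. The 1 probe described per gene had the opposite sign (0.28 and 0.48), while the others gave -0.46 to 0.45 and -0.51 to -0.10. Without Creole replicate 2, MCAM was at 0.017 and TNMD at -0.008, also of opposite sign, and without single arrays they ran from -0.324 to 0.017 and from -0.008 to 1.706. The cause of these shifts was not tested. The median spot was 3.88 to 4.52 times the negative controls, and a probe at background gives only a bound.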

Other observations

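Of the 3 named genes with the smallest p for F1 minus Creole in HS, C1GALT1 and GSTA4 had lower F1 means at both temperatures. SLA-3, a class I antigen chain, was called in HS at 2.0 (adjusted p = 0.0017), with Creole levels of 11.22, 10.75, 10.74, 12.08 and 9.79 and F1 levels of 12.37, 13.15, 13.0, 12.81 and 13.26, whereas at TN it was at 12.32, 12.63 and 12.63 in Creole and 13.08, 12.83, 12.96 and 12.37 in F1 (0.28 ± 0.33). Among the genes with the smallest p for the difference between temperatures were TOMM20 (TN 0.43, HS -0.15) and EAPP (TN 0.72, HS -0.82), and neither passed (adjusted p = 0.777 for both). The other 6 EAPP probes gave -0.32 to 0.19 at TN. For F1 minus the mean of the parent breeds at TN the 3 with the smallest p were PPP2R3C at 0.50, LRRC41 at 0.44 and BET1L at 0.35, and none passed (adjusted p = 0.233 for each).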
